A study of Mus musculus with 2 samples.

Results

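Droplets of a single-nucleus library hold RNA from the nucleus caught in the droplet and RNA free in the suspension. The comparison described here set barcodes of high and low UMI counts against each other, gene by gene, in the library of in situ polyadenylated nuclei. Barcodes with over 750 unique molecular identifiers (UMIs) were pooled as nuclei, and barcodes with 1 to 100 UMIs were pooled as free RNA. The name free RNA rests on the range of UMIs alone and not on the content of these barcodes. For each gene the level in a pool was its UMIs scaled to a total of 1e6 (CPM). The log2 ratio of the level in nuclei to the level in low-UMI barcodes was taken. Negative values mark RNAs with a larger share in low-UMI barcodes, which need not mean a place outside nuclei. The 5 genes Rn18s-rs5, Lars2, Mir6236, AY036118 and ENSMUSG00002075551, which took 71.9% of the UMIs of nuclei and 64.5% of those of low-UMI barcodes, were left out of all levels. Genes with at least 50 UMIs in both pools together numbered 4795 of 55414, and these are the members described below. They held 88.8% of the remaining UMIs of nuclei and 85.8% of those of low-UMI barcodes.

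C2C12 is an established mouse myoblast line, and its isolated nuclei were fixed with methanol before profiling with the Chromium v3 chemistry of 10x Genomics. In 1 library the nuclei were treated with yeast poly(A) polymerase, an enzyme that extends RNA 3' ends with adenines and so lets oligo(dT) also prime RNAs that are not naturally polyadenylated. The standard library, also of C2C12 nuclei, was made without the enzyme, the warm incubation of its reaction and the wash and spin that followed. The effects of these steps cannot be told apart. Each group had 1 library and nothing in the labels says whether they came from separate cultures, so no test between samples was possible. Every interval below is an exact 95% interval for counting error only.

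The in situ polyadenylated library held 6761140 UMIs and the standard library 10593453. The pool of nuclei had 1335 barcodes with 554431 UMIs outside the 5 genes, and the low-UMI pool had 229964 barcodes with 730318. Within the low-UMI pool, 148628 barcodes had 1 to 10 UMIs and 81336 had 11 to 100, and 136806 had a single UMI. The nuclei expressed the markers of their line: of 10 myoblast markers 9 were detected and 6 were members, with a median log2 ratio of 0.12 (0 of 6 past 2-fold) and summed levels of 2926 CPM in nuclei and 2447 CPM in low-UMI barcodes. Fibroblast, endothelial, immune and adipocyte markers had no member, with summed levels per list of 0 to 19.8 CPM in nuclei and 2.74 to 47.9 CPM in low-UMI barcodes. The myoblast marker Mstn was at 0 in both pools, and the immune markers Ptprc, Lyz2, Csf1r and Cd3e were at 0 in nuclei. Nuclei of the libraries shared no barcode. However, 562 names of in situ polyadenylated nuclei (42.1%) occurred among the low-UMI barcodes of the standard library, and 502 names of standard nuclei occurred among the low-UMI barcodes used here, where they held 0.0561% of the UMIs.

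Small nucleolar RNAs (snoRNAs) are short RNAs that sit mainly in the nucleolus, where they guide chemical modification and cutting of ribosomal RNA. Box C/D snoRNAs guide methylation and box H/ACA snoRNAs guide pseudouridylation, whereas small Cajal body RNAs (scaRNAs) act on spliceosomal RNAs. Most mammalian snoRNAs are cut from introns of host genes and carry no poly(A) tail. Long noncoding RNAs such as Malat1 and unspliced transcripts are kept in the nucleus, while mature mRNAs of ribosomal proteins or metabolic enzymes are mostly cytoplasmic.

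The sequences below, in transcript orientation from the GRCm39 genome (GENCODE M39 gene coordinates), belong to snoRNAs that dominated the low-UMI barcodes or had the lowest ratios. Capitals mark the box C letters TGATGA within the first 26 bases and the box D letters CTGA within the last 16 bases, or, where both were not found, the letters ACA within the last 7 bases. Snord17 lies within Snx5 (chr2:144107899-144108136, minus strand), Snord15a within Rps3 (chr7:99131992-99132139, minus strand), Snord37 within Eef2 (chr10:81014784-81014847, plus strand), Snord73b within Rps3a1 (chr3:86047925-86047995, minus strand), Snord11 within Nop58 (chr1:59743949-59744032, plus strand) and Gm24616 within Eif4a2 (chr16:22930367-22930505, plus strand). Snord118, the U8 RNA, lies within Tmem107 (chr11:68964253-68964387, plus strand). It is known to act in rRNA maturation.
Snord17: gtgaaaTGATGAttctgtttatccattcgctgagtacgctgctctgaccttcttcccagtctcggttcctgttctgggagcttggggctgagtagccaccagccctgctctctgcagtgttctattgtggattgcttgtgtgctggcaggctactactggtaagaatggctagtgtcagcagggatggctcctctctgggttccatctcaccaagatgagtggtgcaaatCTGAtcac
Snord15a: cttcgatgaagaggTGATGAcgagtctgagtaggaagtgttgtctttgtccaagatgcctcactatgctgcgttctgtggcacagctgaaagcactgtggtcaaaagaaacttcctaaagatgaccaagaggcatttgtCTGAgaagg
Snord37: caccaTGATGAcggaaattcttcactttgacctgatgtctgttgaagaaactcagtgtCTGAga
Snord73b: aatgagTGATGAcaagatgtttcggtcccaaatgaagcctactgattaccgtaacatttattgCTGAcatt
Snord11: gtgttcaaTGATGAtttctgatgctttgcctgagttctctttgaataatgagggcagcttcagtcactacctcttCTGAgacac
Gm24616: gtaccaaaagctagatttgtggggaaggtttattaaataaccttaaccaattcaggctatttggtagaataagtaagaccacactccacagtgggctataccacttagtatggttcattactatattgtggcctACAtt
Snord118: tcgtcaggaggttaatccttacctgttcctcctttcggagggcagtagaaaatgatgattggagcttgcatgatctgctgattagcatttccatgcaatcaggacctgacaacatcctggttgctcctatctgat

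Of the 61 snoRNA members whose sequence was read, 29 held both boxes in these windows (47.5%), 14 held only the ACA and 18 held neither set, which says only that these exact letters are not in these windows. Among 1523 annotated snoRNA genes searched in the same way, 20.3% held both boxes. The search was made on the transcript strand, and the ACA letters can share a base with box D, as in Snord73b.

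Nearly all single snoRNAs were depleted in nuclei. Because the members are described by the ratio they were ranked on, their counts are a description and not a test. Of 67 snoRNA members, 65 were at least 2-fold lower in nuclei and 0 were 2-fold higher, against 6.38% of all members lower and 3.19% higher (306 and 153 of 4795). Their median log2 ratio was -2.13, beside 0.06 for all members. All snoRNA genes together gave 4491 UMIs in nuclei (0.810% of kept UMIs) and 27229 UMIs in low-UMI barcodes (3.73%), a 4.60-fold lower share in nuclei. The 67 members spanned -3.25 to 0.45, so that the group as a whole lay far below the middle of the distribution of all genes in the plot of members by kind.

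**Figure D1:**
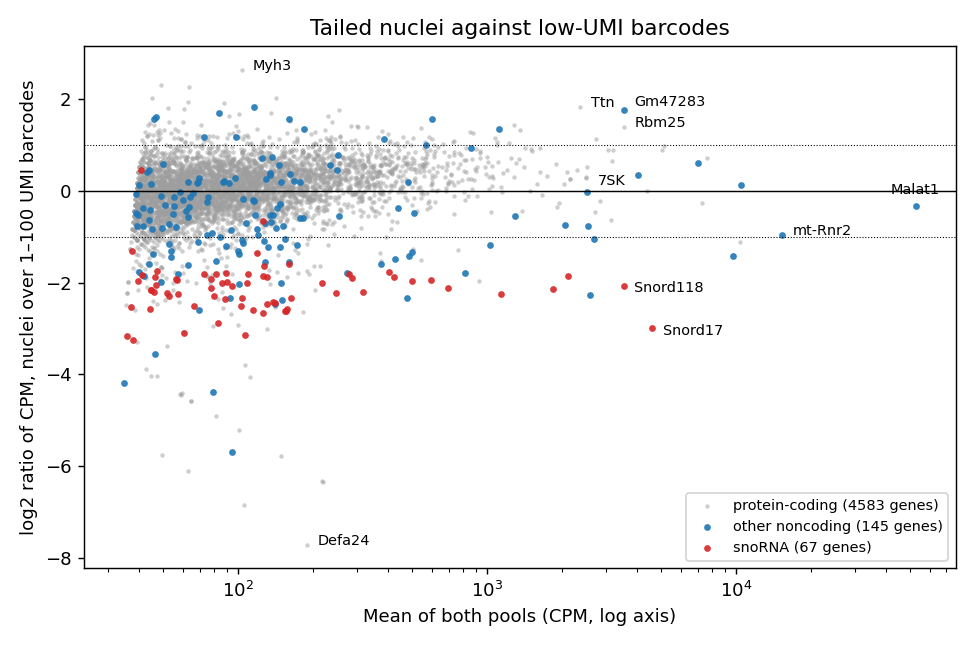
Log2 ratio of CPM, nuclei over low-UMI barcodes, against the mean CPM of both pools on a log axis. Each point is 1 of the 4795 members of the in situ polyadenylated library, coloured by kind. The snoRNAs form a band around -2, with 65 of 67 at -1 or lower, while the protein-coding genes centre near 0.

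Snord17 was the most abundant snoRNA of the low-UMI barcodes. It had 572 UMIs in 424 nuclei and 5968 UMIs in low-UMI barcodes, or 1032 and 8172 CPM, for a log2 ratio of -2.99 (-3.11 to -2.86). The nuclei level was thus far below that of low-UMI barcodes, and no nucleus held more than 4 of its UMIs. Snord118 followed with 748 and 4170 UMIs and a ratio of -2.08 (-2.20 to -1.97). Snord13, the U13 RNA, which has no host gene, had 375 and 2191 UMIs and a ratio of -2.15 (-2.31 to -1.99). Scarna2, a Cajal body RNA, had 503 and 2415 UMIs and a ratio of -1.87 (-2.01 to -1.73). These abundant RNAs, of different families, lay between -2.99 and -1.87.

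The lowest ratios of snoRNAs with at least 100 UMIs belonged to intron-encoded box C/D RNAs. Snord15a had 12 UMIs in nuclei and 140 in low-UMI barcodes, a ratio of -3.15 (-4.13 to -2.30). Snord11 had 11 and 106 UMIs (-2.87), Snord73b 19 and 159 (-2.67), Snord37 24 and 195 (-2.62) and Snord59a 24 and 194 (-2.62). Their intervals overlapped that of Snord17, so the order among them was not resolved at this depth. Gm24616, whose sequence ends in the ACA pattern, had 218 and 1371 UMIs and a ratio of -2.26 (-2.47 to -2.05). By list, 34 of 35 named box C/D members were 2-fold lower (median -2.15), as were 4 of 4 box H/ACA members (median -2.11) and 2 of 2 scaRNA members. Of the 3 snoRNAs transcribed from genes of their own, Snord118, Snord13 and Snord3a, 2 were 2-fold lower.

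At the other end, Snord55 (44 and 175 UMIs, -1.59) and Gm23547 (37 and 125 UMIs, -1.36) were depleted least among the snoRNAs past 2-fold with at least 100 UMIs. Snord3a (ENSMUSG00002074875), a copy of the U3 RNA that acts in processing of 18S rRNA, had 54 UMIs in nuclei and 113 in low-UMI barcodes, a ratio of -0.67 (-1.16 to -0.19). Its 54 UMIs came from only 8 nuclei, 14 of them from 1 nucleus, and without that nucleus the ratio was -1.10 (-1.66 to -0.57). The scaRNA Gm23119, named here after its values were seen, was the exception, with 26 UMIs in nuclei and 25 in low-UMI barcodes, and its ratio of 0.45 had an interval that included 0 (-0.40 to 1.31). No snoRNA member had an interval wholly above 0.

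Of the sequence of the snoRNAs, only the box letters and the length were compared with the ratio. The 29 with both boxes had a median of -2.33, the 14 with only the ACA a median of -2.11 and the 18 with neither a median of -1.999. Across the 61 sequences, which ranged from 64 to 414 bases, Spearman's rho of length with the ratio was 0.26, given as a description across genes of 1 library. The 38 below 100 bases had a median of -2.18 and the 23 longer ones a median of -2.06. Shorter and longer snoRNAs both had medians close to that of all snoRNA members.

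Host genes that were members mostly stayed near the middle of the distribution, unlike their snoRNAs. Of 67 snoRNA members, 62 lay inside a gene of the same strand, and for 44 of them the host was itself a member, giving 32 hosts. Host here means only the gene around the snoRNA. Tmem107 is thus counted as the host of Snord118, although Snord118 is transcribed from a gene of its own. The snoRNA had a lower ratio than its host in 44 of 44 pairs, with a median difference of -2.27. The hosts had a median ratio of -0.05, and 1 host, Rpl7a, was 2-fold lower and 1 was 2-fold higher in nuclei. Snord17 at -2.99 faced Snx5, a sorting nexin, at -0.12. Snord15a at -3.15 faced Rps3 at -0.42, and Snord11 at -2.87 faced Nop58, a core protein of box C/D particles, at 0.57. The closest pair was Gm23969 at -2.001 and Rpl7a at -1.79, a ribosomal protein mRNA that was low in nuclei as well. Of the 32 hosts, 17 had intervals that included 0. A further 12 hosts, of 18 snoRNAs, were below the gene minimum, and 4 of these, named after their values were seen, had intervals below 0: Rps3a1, the host of Snord73b (2 and 21 UMIs, -2.99, interval -6.13 to -0.96), Epb41l4aos (6 and 38 UMIs, -2.27), Snhg9 (0 and 13 UMIs) and Tmem107 (0 and 7 UMIs). Reads of an intronic snoRNA and of its unspliced host can be assigned to either gene, and 18 members that share a stretch of 31 bases with a small RNA had a median of -0.05, with 0 of them 2-fold lower.

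**Figure D2:**
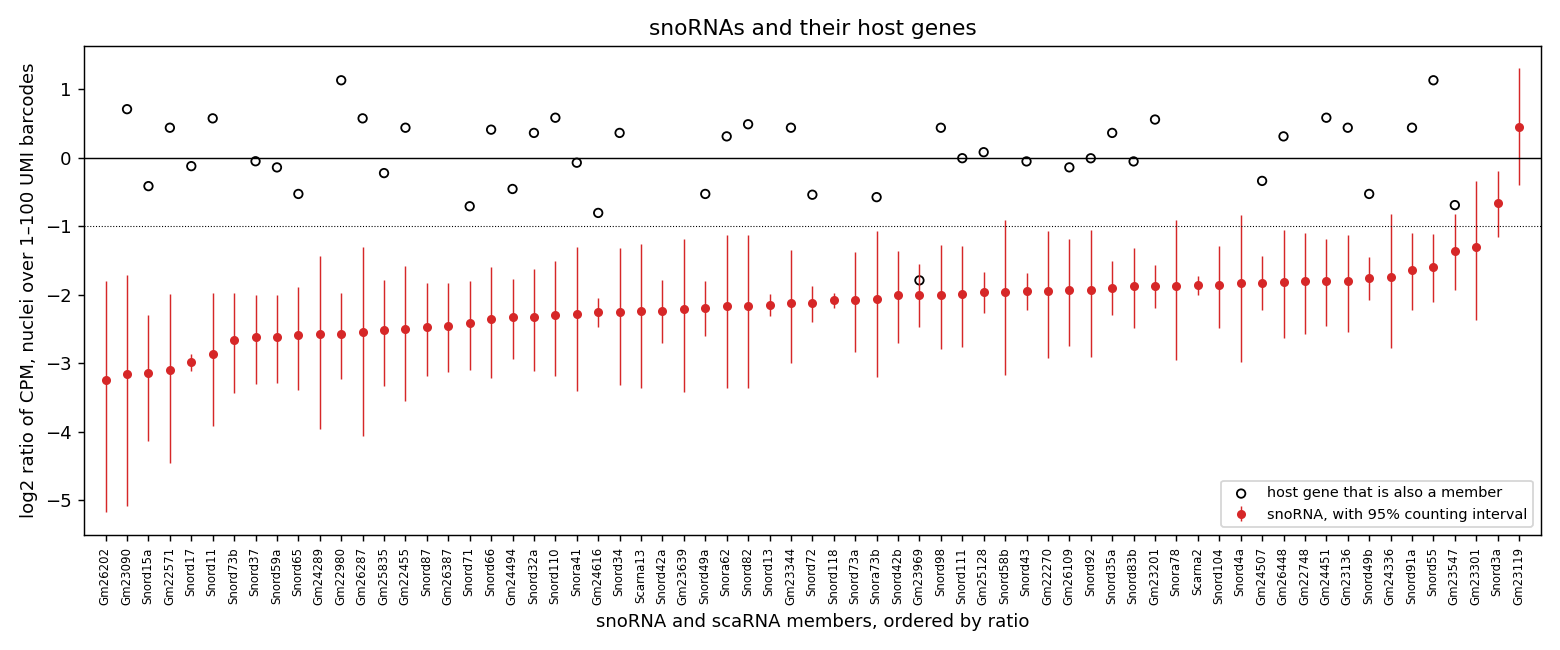
Log2 ratio of CPM, nuclei over low-UMI barcodes, on the y axis for the 67 snoRNA members, ordered by ratio (filled points, with bars for exact 95% counting intervals), and for their host genes that were members (open points). In 44 of 44 pairs the filled point lies below the open one.

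Barcodes with over 100 and up to 750 UMIs, which the choice of pools left unused, placed the snoRNAs between both ends. The level in this band lay between those of low-UMI barcodes and nuclei for 63 of 67 members. It also did so for 103 of the 141 protein-coding members higher in nuclei, so a place in between was not particular to snoRNAs. Over finer bands, snoRNAs took 2.22% of kept UMIs in barcodes of 1 to 10 UMIs, 4.00% at 11 to 50, 2.92% at 51 to 100, 1.42% over 100 and up to 500, 0.968% up to 750, 0.813% up to 1500 and 0.806% above 1500. The share thus peaked at 11 to 50 UMIs and was level above 750. Snord17 alone had 8686 CPM in barcodes of 11 to 100 UMIs, 1948 CPM over 100 and up to 750 and 1032 CPM in nuclei. Counted per barcode, nuclei still held more snoRNA, 3.36 UMIs against 0.310 in barcodes of 11 to 100 UMIs, which is 10.8 times as many, whereas all kept UMIs were 52.8 times as many.

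**Figure D3:**
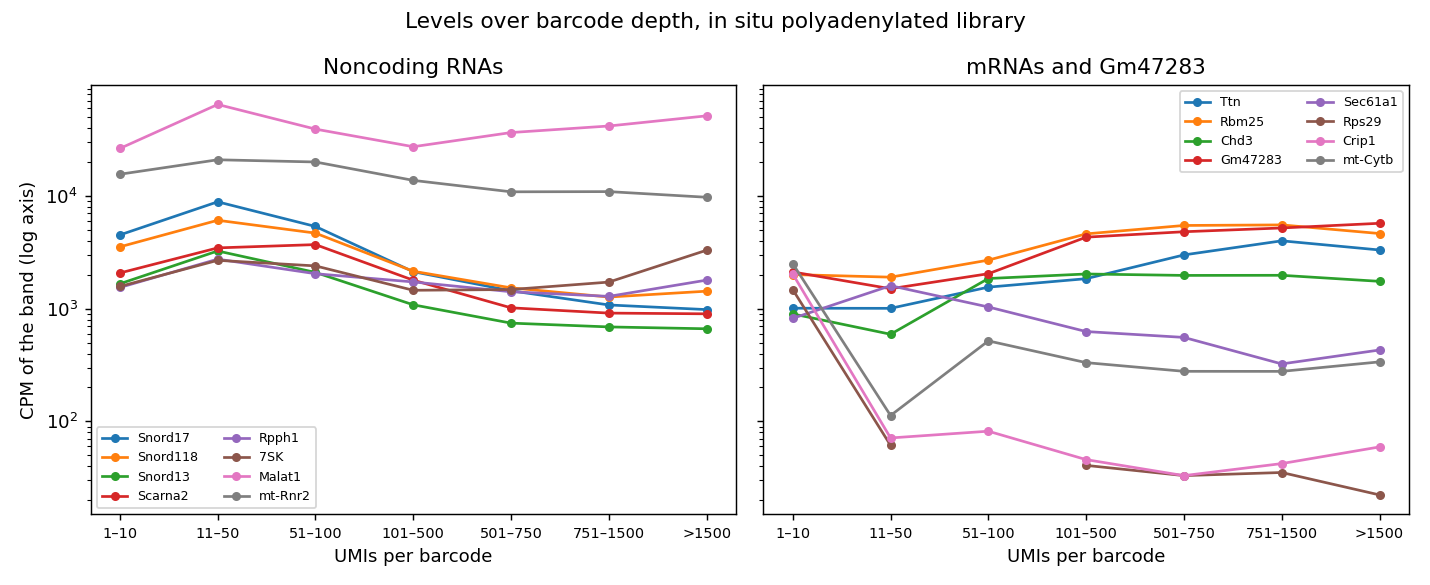
Level of selected members over bands of UMIs per barcode in the in situ polyadenylated library, from 1 to 10 UMIs to over 1500, in CPM on a log axis, with noncoding RNAs on the left and mRNAs with Gm47283 on the right; each line is 1 gene. Snord17 declines from the 11 to 50 band to nuclei, Ttn and Rbm25 lie higher in nuclei, Rps29, Crip1 and mt-Cytb are highest at 1 to 10 UMIs, and Rps29 has no point at 51 to 100, where it had 0 UMIs.

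In the standard library, where few snoRNAs can be primed, the same pools held 61 snoRNA UMIs in nuclei and 238 in low-UMI barcodes, a ratio of -1.15 (-1.58 to -0.73). The direction was thus shared with the in situ polyadenylated library. The snoRNA members held only 22 and 130 of these UMIs, against 4251 of 4491 and 26056 of 27229 in the in situ polyadenylated library. Both class ratios therefore rest on partly different snoRNA genes, and their sizes do not compare directly. Whether the libraries differ in this ratio could not be tested with 1 library each.

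Other noncoding RNAs were split. Of 145 members, 46 were 2-fold lower and 12 were 2-fold higher in nuclei, beside 6.38% lower and 3.19% higher over all members. Their median was -0.52. The members of small ribonucleoprotein particles lay mostly on the low side, 4 of 6 past 2-fold. Vaultrc5, the RNA of the cytoplasmic vault particle, had 24 UMIs in nuclei and 174 in low-UMI barcodes, a ratio of -2.46 (-3.14 to -1.84). The Y RNAs, which bind the Ro60 protein, followed with Rny1 at 17 and 113 UMIs (-2.34) and Rny3 at 36 and 140 (-1.56). Rmrp, the RNA of RNase MRP, had 347 and 1041 UMIs (-1.19), and Rpph1, the RNA of RNase P, had 850 and 1876 (-0.74). Only 7SK, which holds the elongation factor P-TEFb inactive, was near 0, with 1382 and 1852 UMIs and a ratio of -0.02 (-0.13 to 0.08). A single nucleus held 171 of the 7SK UMIs, and without it the ratio was -0.22 (-0.32 to -0.11).

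The lowest noncoding ratios belonged to little-described genes. Gm43972, a long noncoding RNA (lncRNA), had 2 UMIs in nuclei and 135 in low-UMI barcodes, a ratio of -5.68 (-8.74 to -3.80). Gm42899 had 4 and 110 UMIs (-4.38), and both were also lower in standard nuclei, at -1.92 and -1.35. Gm26705 was the most abundant of this group, with 494 UMIs in nuclei and 3115 in low-UMI barcodes and a ratio of -2.26 (-2.40 to -2.12), while the standard library gave -0.33 (-0.47 to -0.20). Gm22574, which the current annotation names Snord138, had 88 and 581 UMIs (-2.33), close to the median of the snoRNAs. Gm43523 had 27 and 184 UMIs (-2.37). The lncRNA 1110038B12Rik had 201 and 919 UMIs (-1.80). Of 11 noncoding host genes 4 were 2-fold lower and 0 higher (median -0.58), a share of lower ones near the 46 of 145 other noncoding members. Dancr at -1.79 (68 and 310 UMIs) was among the lowest and Zfas1 at 0.56 the highest.

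Noncoding RNAs higher in nuclei were led by Gm47283, with 3028 UMIs in nuclei and 1174 in low-UMI barcodes and a ratio of 1.76 (1.67 to 1.86). It was found in 65.1% of nuclei. Erdr1 had 133 and 59 UMIs (1.57). In the standard library the ratios were smaller, 0.23 for Gm47283 and 0.07 (-0.43 to 0.55) for Erdr1. The current annotation names Gm47283 and Erdr1 as the copies Erdr1y and Erdr1x, and reads can be split between such copies. Gm47840 had 498 and 224 UMIs (1.55) and was also higher in standard nuclei (1.81). Gm10040 (100 and 37 UMIs, 1.83), Gm19220 (886 and 463, 1.33), Gm48368 (146 and 76, 1.34) and Gm26822 (293 and 176, 1.13) were higher as well. Their ratios in the standard library were 0.79, 1.43, 0.44 and 0.39, the last with an interval that included 0. Of the other members past 2-fold, named after their values were seen, 5830417I10Rik had a ratio of 1.60, Gm49984 of 1.56, Gm2033 of 1.17 and 2700099C18Rik of 1.16. Gm19220 and Gm48368 are processed pseudogenes, whose reads cannot be told apart with certainty from those of their parent genes.

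Copies of 5S rRNA, the small RNA of the large ribosomal subunit made by RNA polymerase III, stood at both ends. n-R5s2, named after its values were seen, had 2 UMIs in nuclei and 48 in low-UMI barcodes (-4.19, interval -7.27 to -2.26), n-R5s115 had 52 and 59 (0.22) and n-R5s28 had 71 and 29 (1.69, interval 1.05 to 2.37). The 71 UMIs of n-R5s28 came from 8 nuclei. A UMI of such near-identical copies can be placed on any of them, and all 341 annotated 5S genes together, a sum made after the values were seen, had 216 and 409 UMIs and a ratio of -0.52 (-0.77 to -0.28).

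Long noncoding RNAs known for nuclear retention were, as a list, not 2-fold higher in nuclei. Of 9 members on that list, 0 were 2-fold higher and 1 was 2-fold lower, beside 3.19% and 6.38% of all members. The median was -0.34. Malat1, which accumulates at nuclear speckles, had 25803 UMIs in nuclei and 43061 in low-UMI barcodes, or 46540 and 58962 CPM, a ratio of -0.34 (-0.36 to -0.32). It was found in 97.5% of nuclei, yet its level was higher in the low-UMI pool. Against barcodes of 1 to 10 UMIs alone, which had 26450 CPM, the ratio turned to 0.82 (0.75 to 0.88), and in the standard library the ratio was 0.36 (0.35 to 0.37). Neat1, the scaffold of paraspeckles, had a ratio of 0.13 (0.08 to 0.18). Kcnq1ot1, an imprinted antisense RNA, had 57 and 132 UMIs and a ratio of -0.81 (-1.29 to -0.36), beside 0.77 (0.54 to 0.99) in the standard library. Tug1 was lowest, with 47 and 218 UMIs and a ratio of -1.82 (-2.30 to -1.36).

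The direction of a small ratio depends on the scale. With the 5 genes kept in the totals every ratio shifted by -0.34, so that values from 0 to 0.34, such as that of Neat1, change sign, and the split of all members moved from 153 higher and 306 lower to 39 higher and 564 lower. The ratios of Malat1 in the in situ polyadenylated library and of the snoRNAs stay negative under that scale. The differences between genes within the library do not change.

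Mitochondrially encoded RNAs are made outside the nucleus and serve as a mark of cytoplasmic RNA. The mitochondrial rRNAs mt-Rnr1 (968 and 2657 UMIs, -1.06) and mt-Rnr2 (5747 and 14810 UMIs, -0.97) were lower in nuclei, and mt-Rnr2 was lower still in standard nuclei, at -1.96 (-2.005 to -1.91). The mitochondrial mRNAs differed from them. mt-Cytb had a ratio of -0.48 against all low-UMI barcodes and of 1.17 against those of 11 to 100 UMIs, since 226 of its 313 low-UMI UMIs were in barcodes of 1 to 10. mt-Nd4 moved in the same way from 0.12 to 1.44 and mt-Co1 from -0.66 to 0.90. Over the 8 members of the list the median was -0.45 against all low-UMI barcodes and 0.91 against those of 11 to 100 UMIs.

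Barcodes of 1 to 10 UMIs were few in UMIs, 12.3% of the kept UMIs of the low-UMI pool, but differed in content from those of 11 to 100. Against the latter alone, 163 members (3.4%) were 2-fold higher and 248 (5.18%) 2-fold lower in nuclei, with 137 and 229 called in both comparisons. The snoRNAs kept their place, with 65 of 67 lower, and the change fell on mRNAs. Of 195 protein-coding members lower in nuclei, 70 were not 2-fold lower against barcodes of 11 to 100 UMIs. In 73 of the 195, over 50% of the low-UMI UMIs were in barcodes of 1 to 10.

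The lowest mRNAs were of this kind and belong to other tissues. Apoa4, an intestinal apolipoprotein, had 0 UMIs in nuclei and 321 in low-UMI barcodes, 311 of them in barcodes of 1 to 10. With the count of 0 set to 3 UMIs it was 81.2-fold lower in nuclei, a log2 ratio of -6.34. The upper end of its interval was -6.04. Fabp1, a fatty acid binding protein, had 0 and 317 UMIs and Apoa1 had 0 and 217. Defa24, a defensin of the gut, had 1 and 274 UMIs (-7.70, interval -13.01 to -5.21). The globins Hba-a1 (0 and 119 UMIs) and Hbb-bs (1 and 152 UMIs) of red blood cells were alike, 110 and 145 of their UMIs lying in barcodes of 1 to 10.

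Lists of such genes were drawn up after these values were seen. The 12 intestinal genes took 1.88% of kept UMIs in barcodes of 1 to 10 (1694 UMIs), 0.00906% in those of 11 to 100 and 0.00253% in nuclei. The 5 red blood cell genes took 0.394%, 0.00328% and 0.00018%, and the 8 macrophage and neutrophil genes took 0.248% in barcodes of 1 to 10. These RNAs were thus almost wholly in the shallowest barcodes. Their source was not tested.

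Short cytoplasmic mRNAs lay on the same side. Of 39 members encoding oxidative phosphorylation subunits, 23 were 2-fold lower and 0 higher in nuclei, beside 6.38% and 3.19% of all members. Their median was -1.36, but against barcodes of 11 to 100 UMIs it was -0.21. Atp5e, a subunit of ATP synthase, had 8 UMIs in nuclei and 145 in low-UMI barcodes (-3.78), 117 of them in barcodes of 1 to 10. Cox8a, a subunit of cytochrome c oxidase, had 13 and 129 UMIs, and its ratio moved from -2.91 to -0.74. Of 59 ribosomal protein members, 21 were 2-fold lower and 1 higher (median -0.67), and against barcodes of 11 to 100 UMIs the median was 0.05. Rps29, a ribosomal protein of the small subunit, had 16 and 170 UMIs and moved from -3.01 to -1.002. Crip1 (28 and 229 UMIs, -2.63) and the transcription factor Bhlhe41 (7 and 154 UMIs, -4.06) also had most of their low-UMI UMIs in the shallowest barcodes. The thymosin mRNA Tmsb10 was 2-fold lower against all low-UMI barcodes (-1.36) and at 0.23 (-0.34 to 0.81) against those of 11 to 100.

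Some mRNAs were low against both sets of barcodes, and these were named by the same ranking against barcodes of 11 to 100 UMIs after the first values were seen. Sec61a1, the channel subunit of the translocon of the endoplasmic reticulum, had 209 UMIs in nuclei and 1078 in low-UMI barcodes, a ratio of -1.97 (-2.19 to -1.75). Of the latter, 1004 were in barcodes of 11 to 100. The standard library gave a similar value, -1.78 (-2.08 to -1.49). Rpl7a had 43 and 196 UMIs (-1.79) and -2.85 in the standard library. Genes known from other cell types were in the same group, among them the olfactory receptor Olfr137 (107 and 406 UMIs, -1.53), the T cell receptor subunit Cd3d (116 and 389 UMIs, -1.35) and the photoreceptor gene Rpgrip1 (23 and 107 UMIs, -1.82). Olfr137 had a ratio of 0.15 in the standard library, with an interval that included 0 (-0.14 to 0.43).

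mRNAs higher in nuclei were led by long muscle transcripts. Titin (Ttn), the giant sarcomere protein, had 2035 UMIs in nuclei and 756 in low-UMI barcodes, a ratio of 1.83 (1.71 to 1.95), and the standard library gave 1.89 (1.79 to 1.99). Embryonic myosin (Myh3), a gene of forming myotubes, had 99 and 21 UMIs, a ratio of 2.63 (1.94 to 3.39), and 2.18 in the standard library. Nebulin (Neb), named after its values were seen, had 45 and 12 UMIs (2.30) and 2.61 in the standard library. The UMIs of Myh3 lay in 17 nuclei, 15 of which also held Ttn, whereas Ttn was detected in 358 nuclei (26.8%). The 14 nuclei richest in these 3 genes together held 48.3% of the Ttn UMIs, 86.8% of those of Myh3 and 86.7% of those of Neb. The 8 myotube markers together had 153 and 69 UMIs, a ratio of 1.55 (1.13 to 1.98), but Myh3 was the only member among them, and the other 7 markers had 54 and 48 UMIs and a ratio of 0.57 (-0.02 to 1.16). Without the 1 nucleus richest in it, the ratio of Myh3 was 1.91 (1.17 to 2.704) and that of Ttn 1.68 (1.56 to 1.81).

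Further mRNAs higher in nuclei ranged from widely detected ones to Gps2, which was found in 12.5% of nuclei. Rbm25, a splicing regulator, had 2832 UMIs in 1029 nuclei and 1430 UMIs in low-UMI barcodes, a ratio of 1.38 (1.29 to 1.48), beside 0.58 (0.51 to 0.65) in the standard library. Rsrc1, a serine-arginine rich splicing protein, had 218 and 85 UMIs (1.76), and the splicing factor Luc7l3 had 819 and 487 (1.15). The chromatin remodellers Chd3 (1035 and 507 UMIs, 1.43) and Chd7 (434 and 223 UMIs, 1.36) stood beside them. So did Rtf1 of the transcribing polymerase complex (195 and 91 UMIs, 1.497), Gps2 of a corepressor complex (192 and 82 UMIs, 1.62) and Tnrc6c of microRNA silencing (1069 and 563 UMIs, 1.32). As a list, however, splicing factors and genes with detained introns had a median near 0. Of 28 members, 3 were 2-fold higher and 1 lower, beside 3.19% and 6.38% of all members. Their median was -0.16, although their pooled UMIs gave 0.60.

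Replication-dependent histone mRNAs, which end in a stem-loop and not in a poly(A) tail, were spread over both sides. Of 49 members, 8 were 2-fold higher and 3 lower, with a median of 0.20, against 3.19% higher and 6.38% lower over all members. The share of lower ones was thus near that of all members. All 8 higher ones encode H2A, among them H2ac7 (58 and 16 UMIs, 2.26), H2ac24 (126 and 41, 2.02), H2ac13 (77 and 27, 1.91) and H2ac22 (1.69). All 3 lower ones encode H4, namely H4f16 (156 and 587 UMIs, -1.51), H4c9 (26 and 88, -1.36) and H4c14 (163 and 519, -1.27). Since the copies of each histone are nearly identical and a UMI can be placed on any of them, the genes were also summed by family, a grouping made after the values were seen. The 19 H2A genes then gave 1458 and 1066 UMIs and a ratio of 0.85 (0.73 to 0.96), the 13 H4 genes gave 739 and 1877 and -0.95 (-1.07 to -0.82), and H2B (0.12), H3 (0.28) and H1 (-0.23) lay between them. H2A and H4 were placed oppositely in the sums as well, although neither sum reached 2-fold. The sums include the genes called above, so they are no separate support. The 8 higher H2A genes held 982 of the 1458 UMIs of H2A in nuclei.

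The UMIs of single H2A genes other than H2ac15 lay in few nuclei, and mostly in different ones. H2ac15, with 305 of the 982 UMIs, was detected in 112 nuclei, with 3.4% of its UMIs in 1 of them. All H2A genes together were detected in 340 nuclei. Since a UMI can be placed on any near-identical copy, the nuclei given for single copies are not certain. H2ac7 was detected in 6 nuclei, with 35 of its 58 UMIs in 1 of them, and without that nucleus its ratio was 0.92 (-0.06 to 1.94). H2ac12 fell to 0.40 (-0.43 to 1.22) and H2ac8 to 0.97 (0.61 to 1.34) in the same way, so that 5 of the 8 stayed past 2-fold. H2ac24 was detected in 22 nuclei, H2ac22 in 21 and H2ac13 in 13. The 8 higher H2A genes were found in 214 nuclei, of which 20 held UMIs of at least 2 of these genes. Over all members higher in nuclei, 131 of 153 kept a 2-fold difference without the nucleus that held most of their UMIs, and 8 had over 20% of their UMIs in 1 nucleus.

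**Figure D4:**
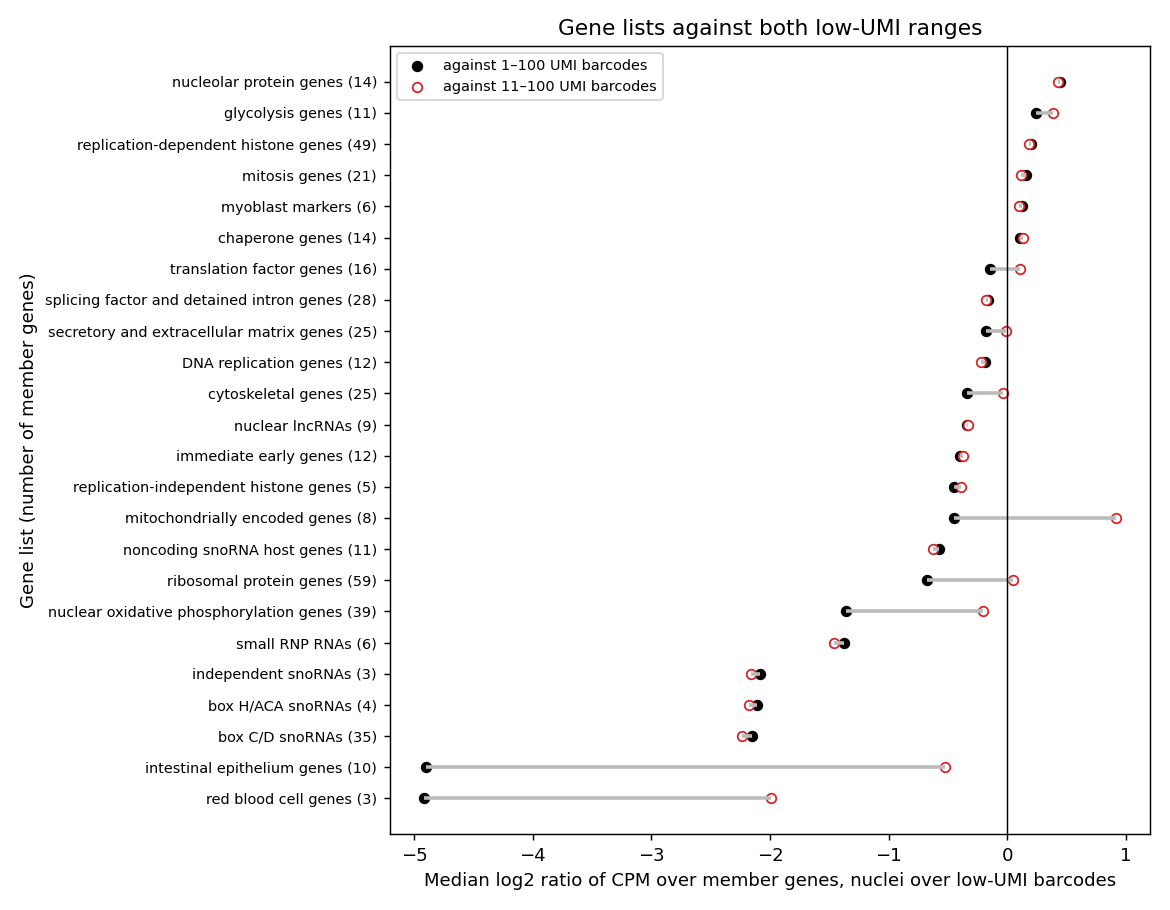
Median log2 ratio of CPM over the members of each gene list in the in situ polyadenylated library, with filled points for nuclei over all low-UMI barcodes and open points for nuclei over barcodes of 11 to 100 UMIs. Box C/D and H/ACA snoRNAs lie near -2 on both, while oxidative phosphorylation genes move from -1.36 to -0.21 and mitochondrially encoded genes from -0.45 to 0.91.

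The medians of the other lists lay between -0.45 and 0.44, beside a median of 0.06 and quartiles of -0.33 and 0.40 over all members. Of all members, 3.19% were 2-fold higher and 6.38% lower, against which the counts below are to be read. Nucleolar protein genes had the highest median among lists of at least 10 members, 0.44, with 1 of 14 higher and 1 lower, and Dkc1, the pseudouridine synthase of H/ACA particles, was that lower one (65 and 191 UMIs, -1.16), also lower in the standard library (-1.53). Glycolysis genes had a median of 0.25 (11 members), mitosis genes 0.16 (21), chaperones 0.11 (14), translation factors -0.14 (16), secretory and matrix genes -0.18 (25) and DNA replication genes -0.19 (12). In these 6 lists 1 member, Cenpe of the mitotic kinetochore, was past 2-fold (365 and 240 UMIs, 1.00). Cytoskeletal genes had a median of -0.34 with 3 of 25 lower, immediate early genes -0.40 with 1 of 12 lower, which was Klf10 (54 and 175 UMIs, -1.30), and replication-independent histones -0.45 with 1 of 5 lower.

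Of the 4583 protein-coding members, 141 were 2-fold higher and 195 lower in nuclei, and the ratio varied with gene structure and with abundance. With the genes cut into 5 equal bins, the bin with the fewest exons (1 to 6) had a median of -0.17 with 121 lower (61 against barcodes of 11 to 100 UMIs), and the bin with the most (22 and over) had a median of 0.28 with 5 lower. By transcript length the medians ran from -0.09 in the shortest bin to 0.19 in the longest. In the shortest bin 96 genes were 2-fold lower, but 40 against barcodes of 11 to 100 UMIs. Spearman's rho with the ratio was 0.28 for exons, 0.18 for transcript length and 0.10 for GC content across 4579 genes, as descriptions across genes of 1 library, and 0.21, 0.08 and 0.14 against barcodes of 11 to 100 UMIs. With the UMIs of the gene in both pools it was 0.29, about the value for exons, and 0.27 against barcodes of 11 to 100 UMIs. The standard library had a like order by exons, from a median of -0.25 in the bin with the fewest to 0.14 in that with the most.

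Across the 4626 members with at least 50 UMIs in the pools of the standard library, the ratios of the libraries had a Pearson's r of 0.54 and a Spearman's rho of 0.48, a description across genes that share the UMI ranges and annotation. In the standard library itself, 1.23% of these members were 2-fold higher and 2.81% lower. Of 145 members higher in in situ polyadenylated nuclei, 124 had the same sign there and 21 were past 2-fold. Of 195 lower ones, 173 had the same sign and 51 were past 2-fold. The members selected on the first library thus mostly kept their direction in the second, at smaller size, where they could be measured there. That held for 145 of the 153 higher and 195 of the 306 lower members. The box C/D, box H/ACA and scaRNA lists had 0 members with at least 50 UMIs in the standard library, so these counts do not cover them. The share with the same sign over all 4626 members is not given, so the counts lack that background.

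**Figure D5:**
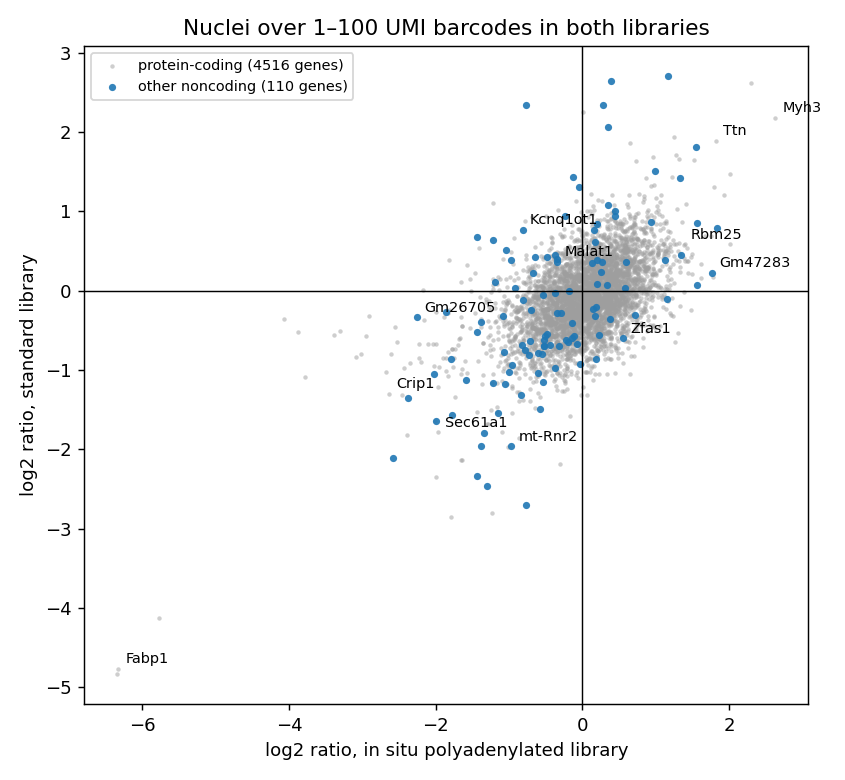
Log2 ratio of CPM, nuclei over low-UMI barcodes, in the in situ polyadenylated library (x axis) and in the standard library (y axis) for members with at least 50 UMIs in the latter. The cloud is tilted along the diagonal and flatter on the y axis, and Malat1 and Kcnq1ot1 lie at negative x and positive y.

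Members near the limit of 50 UMIs had values like those of genes just below it. The 198 genes with 50 to 52 UMIs had a median ratio of -0.16 (from -4.19 to 1.44), and the 250 genes with 47 to 49 UMIs a median of -0.16 (from -5.13 to 1.68). Of the members, 5 share 31 bases with rRNA and were not ranked: Tmem38b (3621 and 10383 UMIs, -1.12), AA474408 (2490 and 2604, 0.33), Gm15564 (4705 and 4101, 0.60), H2ac6 (163 and 136, 0.66) and Lbr (45 and 64, -0.11).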

How the data were processed

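Nuclei of the C2C12 line were profiled in 2 libraries, 1 per group (in situ polyadenylated and standard). Per the labels and the study's methods, the authors trimmed reads with cutadapt 3.4 and used the GRCm39 build. The deposited kallisto matrices hold each barcode's estimated count of UMIs per gene, not normalized, made by the authors with kallisto 0.48.0 and bustools 0.41.0, and 1.10% of the entries used were not whole numbers. For a subset of barcodes the authors also deposited UMI counts, in whole numbers, made with STAR 2.7.10a. They served here only to pair gene IDs with symbols, because 14 of their barcodes fell in the low-UMI pool and 50 had been set as the minimum.

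UMIs were summed per gene over the barcodes of each pool and rounded to whole UMIs. CPM was taken over genes other than the 5 left out. The study's limit on mitochondrial UMIs removed 0 nuclei, and doublets were not called. Log2 ratios carry exact conditional 95% intervals, shares exact Clopper-Pearson intervals, and a count of 0 was set to 3 UMIs. UMIs in both pools set the precision, with 2167 members at 50 to 99 UMIs. Of 55414 genes, 54749 were matched by ID to GENCODE M39 and 665 were not. Named genes were those with at least 100 UMIs whose interval bound nearest 0 was most extreme (8 and 8 snoRNAs, 8 and 8 other noncoding genes, 12 and 12 mRNAs), with the lists of RNA classes and functions given in the report. Members and lists were chosen with earlier results of these data known. As a check of the code, Poisson counts were simulated for the 2625 genes with at least 100 UMIs, with changes set larger than 2-fold. In these, 100 of 100 raised and 100 of 100 lowered genes passed 2-fold, 0 of 2425 unchanged genes did, and 95.9% of intervals held the true value. The simulation had no clumping of UMIs in single nuclei and no genes of 50 to 99 UMIs. It therefore does not show that the calls or intervals hold in these data. Python 3.11.15, numpy 2.4.6, pandas 2.3.3, scipy 1.17.1 and matplotlib 3.10.9 were used. Some genes and sequences are not reported here. Alternatives varied the barcode ranges, gene minimum, totals and scaling.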

Additional observations from a re-analysis of the deposited data

Results flagged for a closer look

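For 8 named genes the ratio of nuclei to low-UMI barcodes had opposite signs in the 2 libraries, with both intervals clear of 0. With 1 library each, the difference between libraries was not tested, and the libraries differed in the enzyme, the incubation and the wash after it. Lower in in situ polyadenylated nuclei but higher in standard nuclei were Kcnq1ot1 (-0.81 and 0.77), Malat1 (-0.34 and 0.36) and the linker histone gene H1f0 (-0.45 and 0.35). Higher in in situ polyadenylated nuclei but lower in standard nuclei were the snoRNA host Zfas1 (0.56 and -0.60), the elongation factor Eef1g (0.45 and -0.39), the nucleolar protein gene Nolc1 (0.65 and -0.22), vimentin (Vim, 0.15 and -0.21) and desmin (Des, 0.50 and -0.19). With the 5 genes kept in the totals the value of Vim in the in situ polyadenylated library changes sign.

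The standard library, which was not used to choose the members, also held RNAs of other tissues in its shallowest barcodes. The 12 intestinal genes took 0.445% of kept UMIs in its barcodes of 1 to 10 UMIs. Their source was not tested.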

How the results depend on the processing

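The counts of members past 2-fold, 153 higher and 306 lower, moved by over 1.5 times under 4 settings. They were 580 and 178 of 2608 members against barcodes of 1 to 10 UMIs alone. With the 5 genes kept in the totals they were 39 and 564 of 4795. A gene minimum of 20 UMIs gave 258 and 844 of 8007, and a minimum of 200 gave 69 and 62 of 1151. The number of members thus also changed in 3 of these settings, so the counts alone do not compare shares. The log2 ratio of all snoRNAs, -2.20, kept its sign in every alternative run. It was -1.45 against barcodes of 1 to 10 UMIs, -2.28 against those of 11 to 100, -2.13 with nuclei over 500 UMIs, -2.54 with the 5 genes kept, -2.27 when centred on the median mRNA, and -2.27 with each gene without its richest nucleus. Among named genes past 2-fold, Tmsb10 turned to 0.23 against those of 11 to 100. Of the named genes within 2-fold, up to 16 of 61 changed sign in a setting (barcode totals without the 5 genes), and 13 of 58 did against barcodes of 1 to 10 UMIs, among them Malat1 (0.82) and H1f0 (0.84). The cause was not tested. Of 69 named genes past 2-fold, 63 stayed past it the same way with the 5 genes kept. With barcode totals taken without the 5 genes, which left 116 nuclei, 47 of 68 did. The alternatives leaving out shared barcode names and richest nuclei were chosen after seeing the data. The STAR counts were not run as an alternative, as 14 low-UMI barcodes were too few. No paired analysis was possible because there was 1 library per group. Depth limits single genes near 50 UMIs, and near-identical gene copies carry an uncertainty outside the intervals.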
